A study of Mus musculus with 64 samples.

Results

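The comparison covers granulocyte-monocyte progenitors (GMP) from livers of mouse fetuses lacking Smarcd2 and from heterozygous fetuses. Members were chosen by the genotype in the library labels: 3 libraries labelled Smarcd2 -/- (KO) were set against 6 labelled Het (HET), 9 of the 64 libraries of the series. A further HET library, numbered 8, was left out because 48.39% of its gene reads lay in 1 predicted gene, Gm10800. The 3 wild-type (WT) GMP libraries entered the same model to help estimate the spread and are shown beside them. All GMP libraries came from fetuses of strain C57BL/6, labelled 13/14 days post coitum, with sex not determined. KO cells carried the Smarcd2 -/- genotype and HET cells 1 heterozygous genotype of the same gene, and no group carried any other named allele or agent. The labels used here do not say how the allele was made, in which cells it was lost first, or whether each library was a separate fetus, so the p-values measure a spread that may be technical.

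GMP are progenitors committed to the myeloid lineages that give neutrophils and monocytes, and in fetal liver they arise next to erythroid cells and hepatocytes. SMARCD2 belongs to the mammalian SWI/SNF complex (BAF), which uses ATP to move nucleosomes and so opens chromatin to transcription factors. Its loss is known in humans and mice for a failure of neutrophil granule formation. Granule genes are switched on in steps: primary granule proteins such as myeloperoxidase and the serine proteases come first, and secondary and tertiary granule proteins such as cathelicidin and lactoferrin come later.

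The GMP gate was CD45+, lineage-negative, Sca-1-, CD34+ and CD16/32 high; the labels write CD177 where the listed antibodies include CD117 (c-Kit). The lineage antibodies included Gr-1, an antibody known to bind Ly6G and Ly6C, so cells with much of these proteins were gated out in every genotype. All 14 marker genes of the gate had reads in KO and in HET libraries, and their summed level was 16740, 18210 and 29810 CPM in the 3 KO libraries, against 15720 to 54830 CPM in HET libraries (median 19020). CPM are counts scaled to a common total of gene reads per library (TMM). Ly6a, which encodes Sca-1, was at 0, 1.18 and 0 CPM in KO libraries 6, 13 and 15, against 0 to 0.768 CPM in HET libraries. Mpo made up most of each sum, so single gate markers say more. Cd34 had 521 to 715 CPM in KO libraries, against 382 to 635 CPM in HET libraries, and Fcgr3, a gene of CD16, had 570 to 800 CPM in KO libraries, against 535 to 1210 CPM in HET libraries. Kit had 29.8 to 131 CPM in KO libraries, against 34.1 to 219 CPM in HET libraries. The granule gate markers Ctsg and Elane were below every HET library in KO cells, as given below.

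Gene reads per library ran from 2268883 to 5844188 in KO, from 1614881 to 4831491 in HET and from 1006090 to 6300070 in WT. The spike-in and Gm10800 shares separated KO from HET libraries, while the Gm42418 share did not. Synthetic spike-in RNAs took 2.52% to 3.06% of reads in KO libraries, against 0.121% to 0.394% in HET libraries (exact two-sided permutation test, p = 0.0238, the smallest that 3 against 6 allow). Gm10800 took 0.176% to 0.302% of gene reads in KO libraries, against 0.361% to 2.38% in HET libraries (same exact permutation test, p = 0.0238). Gm42418 took 0.416% to 1.77% in KO libraries and 0.161% to 5.29% in HET libraries (exact permutation test, p = 0.381). A transcript length index compared log2 levels, centred per gene. It was the median of genes with transcripts over 5000 bases minus that of genes under 1500 bases. The index was -1.26, 0.368 and -1.37 in KO libraries 6, 13 and 15. HET libraries 7 and 9 had -1.49 and -0.56, and the other HET libraries had 0.640 to 1.10. The titles also carry a series name: KO library 6 belongs to series M32 and KO libraries 13 and 15 to M34, while HET libraries 1, 3, 4 and 7 belong to M32 and 9 and 10 to M33. Series M34 held KO libraries alone and M33 no KO library, so only M32 gave a within-series value. The part of these measures in the results below was not tested, except where a value within a series or within a range of Gm42418 is given.

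**Figure D1:**
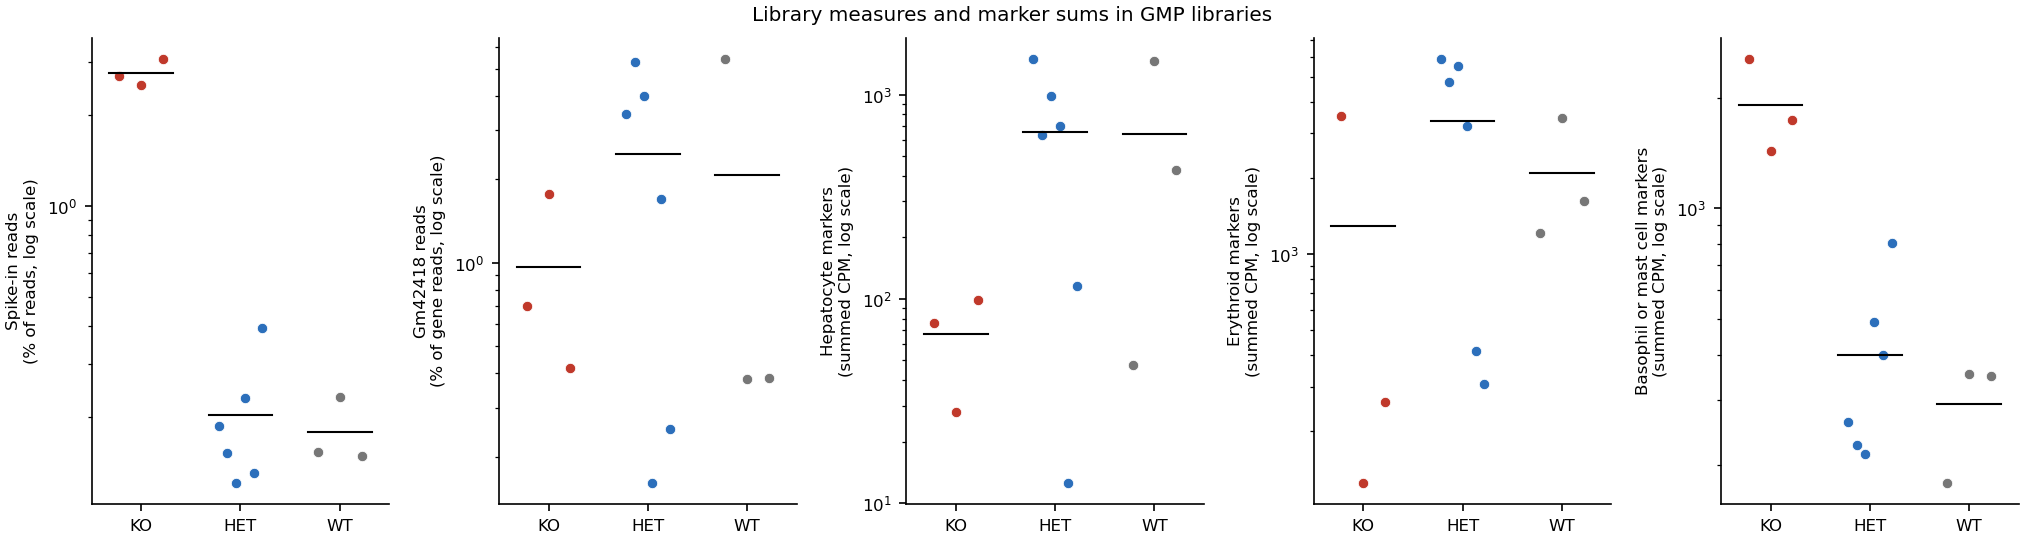
Library measures in the 3 KO, 6 HET and 3 WT GMP libraries, on log axes: spike-in reads as a percentage of reads, Gm42418 as a percentage of gene reads, and summed CPM of hepatocyte, erythroid, and basophil or mast cell markers. Points are libraries and lines are group means. The 3 KO libraries, at 2.52% to 3.06%, stand above every HET library in spike-in share, and at 1433 to 2546 CPM above every HET library in basophil or mast cell markers.

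Smarcd2 itself was nearly absent from the KO libraries. The gene (ENSMUSG00000078619; chromosome 11, 106263179 to 106272972, minus strand, GRCm38) had 0, 1.18 and 0.857 CPM in KO libraries 6, 13 and 15, against 33.1 to 86.0 CPM in HET libraries (median 56.6). WT libraries 2, 5 and 12 had 97.4, 97.4 and 95.8 CPM. No KO library came near a HET library, and every HET library lay below every WT library. The log2 fold change of KO against HET was -6.43 ± 0.69 (SE; edgeR quasi-likelihood test, adjusted p = 0.00102), and that of HET against WT was -0.78 (adjusted p = 1.00). Of 22 tested genes that neighbour Smarcd2, 0 passed in either direction, with a median log2 fold change of -0.03. Of 24 tested genes for other BAF subunits, 0 passed as well. Ss18l1, which encodes a BAF subunit known from neurons, had 2 reads in all KO libraries together, and its pooled reads gave a log2 ratio of -4.10 (95% counting interval -7.19 to -2.19; adjusted p = 0.197).

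Of 12001 genes tested, 45 passed at an adjusted p under 0.05 (0.375%), with 15 higher in KO cells (0.125%) and 30 lower (0.25%). At an unadjusted p under 0.05 there were 744 higher and 993 lower genes. All 45 genes had KO libraries that did not overlap the HET libraries, where 5.99% of all tested genes had no overlap, 2.5% with KO above and 3.49% with KO below; this is a property of passing a test with so few libraries. KO against WT, which uses the same KO libraries, gave 27 genes (0.225%), all among these 45. HET against WT gave 0 genes by edgeR, with 33 at an unadjusted p under 0.05. The median log2 fold change of KO against HET over all tested genes was 0.006.

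**Figure D2:**
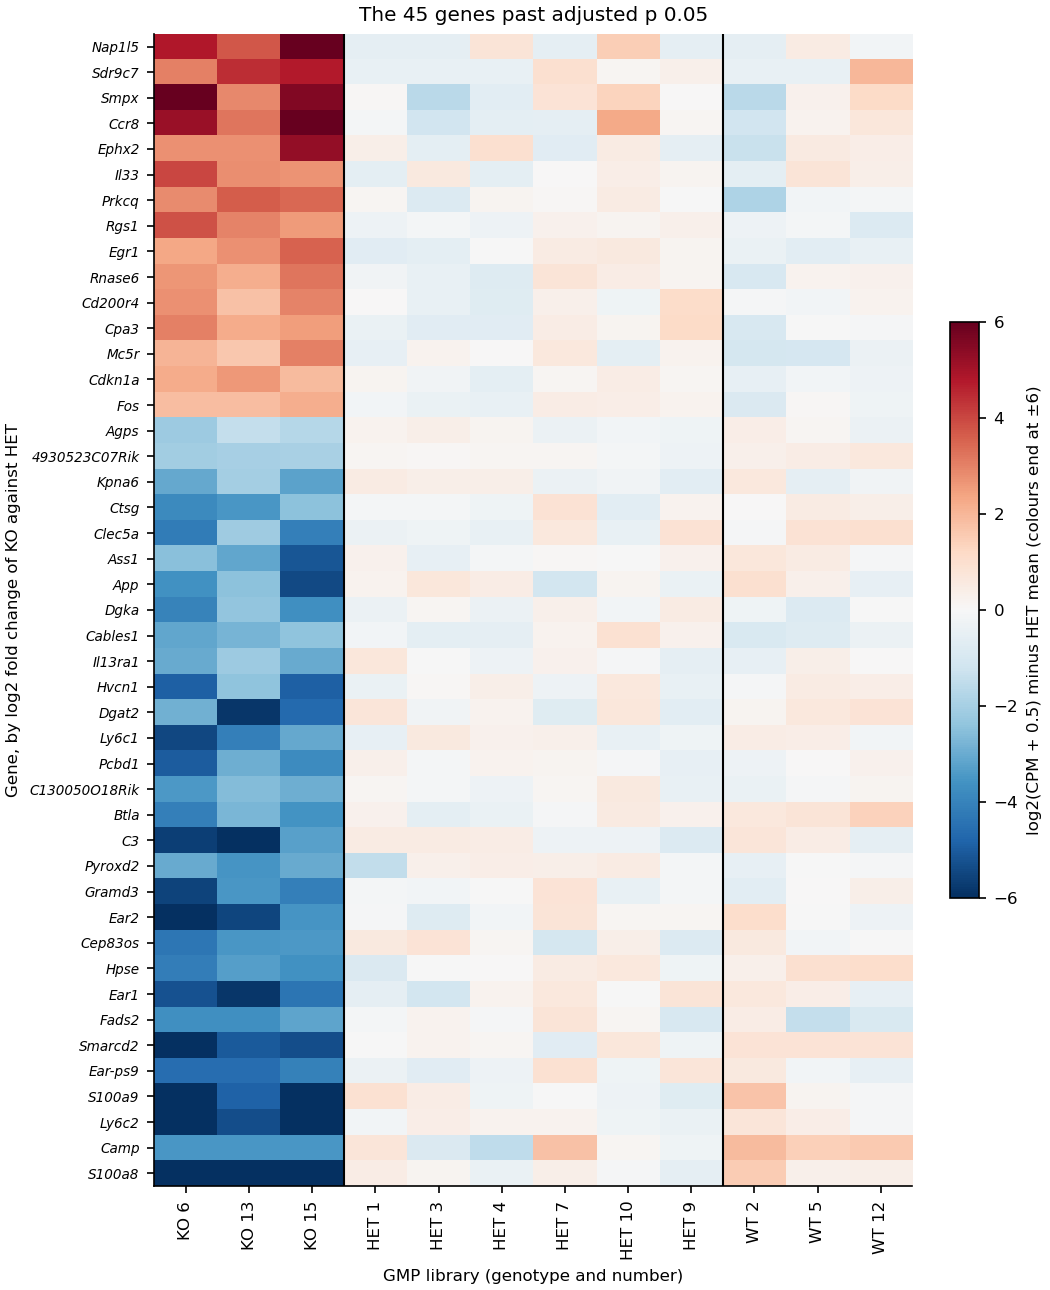
The 45 genes that passed in KO against HET, one row each, ordered by log2 fold change, in the 3 KO, 6 HET and 3 WT GMP libraries (columns). Colour gives log2(CPM + 0.5) minus the HET mean of the gene, and colours end at 6 in either direction. The WT columns lie on the HET side for these genes, with KO columns apart in 15 rises and 30 falls.

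The largest falls by log2 fold change among named genes were those of S100a8, Camp, Ly6c2 and S100a9. Promoters of S100a8, S100a9, Camp, Ctsg, Ly6c2 and, among the rises, Cpa3 are shown because C/EBP, ETS, RUNX and GATA factors are the textbook regulators of granule and mast cell genes. They are taken from RefSeq on GRCm38.p6, where 6 of 6 genes matched, and only bases upstream of every annotated start are shown, 5′ to 3′ on the gene's strand. Capitals mark matches on either strand. The letters searched were TTNNGNAA for C/EBP factors, AGGAAG for the ETS family, TGTGGT for RUNX factors and AGATAA for the GATA family.
S100a8, chr3:90668828-90668977, plus strand: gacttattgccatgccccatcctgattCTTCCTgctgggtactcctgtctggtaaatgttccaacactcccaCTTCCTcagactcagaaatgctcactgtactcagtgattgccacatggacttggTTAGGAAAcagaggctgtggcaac
S100a9, chr3:90695722-90695871, minus strand: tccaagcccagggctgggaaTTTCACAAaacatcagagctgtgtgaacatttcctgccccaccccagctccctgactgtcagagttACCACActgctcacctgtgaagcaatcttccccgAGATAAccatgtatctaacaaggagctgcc
Camp, chr9:109849618-109849706, minus strand: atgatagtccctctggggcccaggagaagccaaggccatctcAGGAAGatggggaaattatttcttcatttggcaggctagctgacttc
Ctsg, chr14:56102575-56102724, minus strand: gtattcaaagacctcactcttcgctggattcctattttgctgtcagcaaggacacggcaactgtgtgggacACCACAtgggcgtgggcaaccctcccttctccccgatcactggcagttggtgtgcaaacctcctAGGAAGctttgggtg
Ly6c2, chr15:75111972-75112121, minus strand: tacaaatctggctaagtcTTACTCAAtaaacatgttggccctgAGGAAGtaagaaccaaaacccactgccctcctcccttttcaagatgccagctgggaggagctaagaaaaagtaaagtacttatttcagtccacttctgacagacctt
Cpa3, chr3:20242182-20242331, minus strand: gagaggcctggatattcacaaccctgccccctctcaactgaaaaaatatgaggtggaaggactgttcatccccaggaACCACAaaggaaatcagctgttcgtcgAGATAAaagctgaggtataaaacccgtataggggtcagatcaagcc

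In these windows the C/EBP letters stood in S100a8, S100a9 and Ly6c2, and the ETS letters in S100a8, Camp, Ctsg and Ly6c2. The RUNX letters stood in S100a9, Ctsg and Cpa3, and the GATA letters in S100a9 and Cpa3. Among 32817 mouse promoters, the same 150-base window at the start held at least 1 match in 22.7% for C/EBP, 19.7% for ETS, 8.4% for RUNX and 5.65% for GATA. The S100a8 window ends 93 bases and the 89-base Camp window 161 bases before the RefSeq start; at the S100a8 position the shares were 25.9% for C/EBP and 18.1% for ETS letters, and in the shorter Camp window the ETS share was 11%. A match is a description of letters, not of a bound site.

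The calgranulin genes S100a8 and S100a9 and the late granule gene Camp fell in KO cells, while most members of their list did not pass. S100a8 and S100a9 encode the calgranulins, which pair as calprotectin, the main cytosolic protein of neutrophils. S100a8 had 0.214, 5.53 and 0.857 CPM in KO libraries 6, 13 and 15, against 296 to 588 CPM in HET libraries (median 441). Every KO library was far below the lowest HET library. Its log2 fold change was -7.80 ± 0.87 (SE; edgeR adjusted p = 0.0011). S100a9 had 0.429, 1.97 and 0 CPM in KO libraries, against 43.2 to 136 CPM in HET libraries (median 64.1), with -6.79 ± 0.90 for the log2 fold change (adjusted p = 0.00438). Camp, the gene of the antimicrobial cathelicidin, had 0 reads in all 3 KO libraries, against 1.48 to 18.9 CPM in HET libraries (median 4.96). Set against a floor of 3 counts over the group, Camp was at least 27.3-fold lower in KO cells (edgeR adjusted p = 0.0401).

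Of 17 tested members of the secondary and tertiary granule list, these 3 fell and 0 rose, beside 0.25% and 0.125% of all tested genes; the median log2 fold change was -1.63 and 9 members were lower at an unadjusted p under 0.05. Wfdc21, a gene of the whey acidic protein family, had 0 reads in KO libraries, against 0.739 to 4.92 CPM in HET libraries, at least 7.17-fold lower and short of the threshold (adjusted p = 0.0918). Lactoferrin (Ltf) averaged 1.86 CPM in KO and 0.548 CPM in HET cells (adjusted p = 0.498), so a difference in it was not detectable at this level. Markers of mature neutrophils summed to 0.429 to 12.6 CPM in KO libraries, against 10.7 to 41.5 CPM in HET libraries. Camp had 0 reads in every KO library, and Retnlg had 0 reads in every KO, HET and WT library. All of these markers except Cxcr2 are also on the granule list, so the sum repeats its members in part. Cxcr2 made up 23.9 of 31.8 CPM in HET library 3 and 21.7 of 27.3 CPM in HET library 4. In HET library 7 it made up 1.64 of 41.5 CPM. Cxcr2 averaged 2.06 CPM in KO and 11.9 CPM in HET cells (log2 fold change -2.64, edgeR adjusted p = 0.300). The part of a smaller share of mature cells was not tested, and in sorted bulk samples fewer cells of a type and less RNA per cell cannot be told apart.

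Of the primary granule list, cathepsin G stood apart from most members. Ctsg, a serine protease of primary granules, had 143, 180 and 370 CPM in KO libraries, against 1311 to 3760 CPM in HET libraries (median 1892). The groups were separated by a wide gap. The log2 fold change was -3.22 ± 0.46 (SE; edgeR adjusted p = 0.00709). It was the 1 of 18 tested members that fell, and 0 rose, beside 0.25% and 0.125% of all tested genes. Elane, neutrophil elastase, had 145, 174 and 250 CPM in KO libraries, against 906 to 8700 CPM in HET libraries (median 1301). The groups did not overlap, but HET library 7 alone held 8700 CPM, and the log2 fold change of -3.89 missed the threshold (adjusted p = 0.0771). Mpo, myeloperoxidase, averaged 16718 CPM in KO and 17024 CPM in HET cells (log2 fold change -0.03 ± 0.50, SE; adjusted p = 0.981). The protease genes Prss57 (log2 fold change -1.39) and Prtn3 (-0.59) had adjusted p-values of 0.0857 and 0.450. Gstm1, a glutathione transferase placed on this list, had a log2 fold change of -2.38 (adjusted p = 0.108). The median of the list was -0.31.

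**Figure D3:**
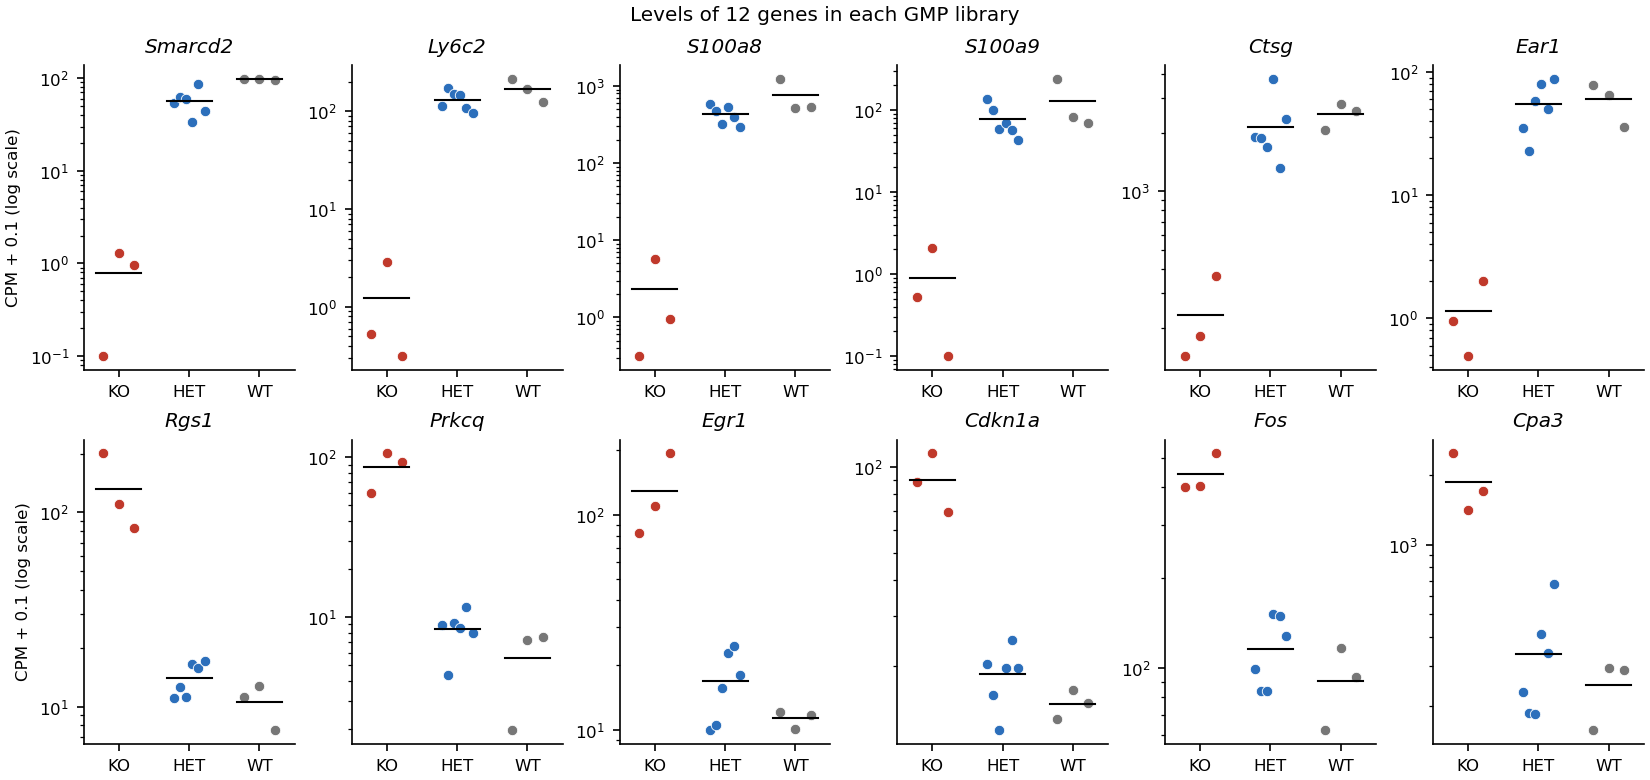
Levels of 12 genes in each GMP library, as CPM + 0.1 on a log axis: KO left, HET middle, WT right. Points are libraries and lines are group means. S100a8 lies at 0.214 to 5.53 CPM in the 3 KO libraries and at 296 or more in the HET libraries, while Cpa3 lies at 1415 or more in KO and at 675 or less in HET libraries.

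Of monocyte genes and myeloid receptors, Ly6c2, its paralog Ly6c1 and Clec5a fell and the others did not pass. Ly6c2, which encodes the Ly6C antigen of monocytes and their precursors, had 0.429, 2.76 and 0.214 CPM in KO libraries, against 97.0 to 172 CPM in HET libraries (median 130). No other tested gene had a smaller adjusted p. Its log2 fold change was -7.05 ± 0.68 (SE; edgeR adjusted p = 0.000802). The paralog Ly6c1 had 0, 0.789 and 2.14 CPM in KO libraries, against 15.3 to 32.4 CPM in HET libraries (log2 fold change -4.45 ± 0.80; adjusted p = 0.0282). Reads of these near-identical genes may have been split or exchanged, so the pair is 1 observation at most. Ly6c2 and Ly6c1 were the 2 of 24 tested monocyte genes that fell, and 0 rose, beside 0.25% and 0.125% of all tested genes; the list's median was 0.24. F13a1, the coagulation factor XIII subunit of monocytes and macrophages, had a log2 fold change of -2.62 (adjusted p = 0.104) and Ly86 one of -3.99 (adjusted p = 0.114). Tmsb10 and Ms4a6c went the other way, with log2 fold changes of 2.08 (adjusted p = 0.148) and 1.63 (adjusted p = 0.213). At an unadjusted p under 0.05, 3 members of the list were higher and 6 lower. Markers of monocytes summed to 276, 308 and 609 CPM in KO libraries, against 465 to 853 CPM in HET libraries. That sum mixed opposite directions: Ms4a6c averaged 296 CPM in KO and 95.3 CPM in HET cells, and F13a1 66.2 and 405 CPM.

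Clec5a, a C-type lectin receptor of myeloid cells, had 16.3, 70.3 and 17.8 CPM in KO libraries, against 227 to 572 CPM in HET libraries (median 252). KO library 13 lay between the other KO libraries and the HET libraries. The log2 fold change was -3.28 ± 0.59 (SE; edgeR adjusted p = 0.0282), and Clec5a was the 1 of 25 tested myeloid receptors that fell, beside 0.25% of all tested genes. Clec12a, another lectin receptor, had a log2 fold change of -1.59 (adjusted p = 0.108). Csf3r, the receptor for G-CSF, averaged 72.5 CPM in KO and 85.2 CPM in HET cells (adjusted p = 0.757).

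Some ribonucleases known from eosinophils were among the falls. Ear1 had 0.857, 0.395 and 1.93 CPM in KO libraries, against 22.9 to 87.7 CPM in HET libraries (median 53.9), with -5.59 ± 0.67 for the log2 fold change (SE; adjusted p = 0.00229). Ear2 had 0, 0.395 and 3.00 CPM in KO libraries, against 22.9 to 69.7 CPM in HET libraries (log2 fold change -5.11; adjusted p = 0.0246). The pseudogene Ear-ps9, which overlaps Ear1, had 1 read in KO libraries, and its pooled reads gave a log2 ratio of -7.25 (95% counting interval -12.6 to -4.76; adjusted p = 0.00662). These 3 genes share sequence, and the counting may have split their reads. Ear1 and Ear2 were the 2 of 12 tested eosinophil genes that fell, beside 0.25% of all tested genes, while the list's median was 0.63. Ear6 of the same family averaged 133 CPM in KO and 132 CPM in HET cells (log2 fold change 0.01, adjusted p = 0.994). The major basic protein gene Prg2 averaged 9333 CPM in KO and 2758 CPM in HET cells (adjusted p = 0.415), Prg3, its homolog, had a log2 fold change of 2.13 (adjusted p = 0.193), and the eosinophil peroxidase gene Epx one of -0.58 (adjusted p = 0.658).

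The other named falls were of mixed function. C3, the complement component, had 0.214, 0 and 3.21 CPM in KO libraries, against 19.62 to 49.3 CPM in HET libraries (log2 fold change -4.86; adjusted p = 0.0282). Hpse, heparanase, had 2 reads in KO libraries, and its pooled reads gave a log2 ratio of -5.79 (95% counting interval -8.85 to -3.92; adjusted p = 0.0128). Btla, an inhibitory receptor of lymphocytes, had 3 (-5.06, -7.35 to -3.49; adjusted p = 0.0246), and Fads2, a fatty acid desaturase, had 1 (-6.28, -11.6 to -3.77; adjusted p = 0.0268). Btla was the 1 of 16 tested lymphoid genes that fell, beside 0.25% of all tested genes. Gramd3 had 0 to 1.58 CPM in KO libraries, against 16.6 to 40.4 CPM in HET libraries (log2 fold change -4.95; adjusted p = 0.0189). Pyroxd2 and Cep83os had 2 and 3 reads in KO libraries, with log2 ratios of pooled reads of -5.24 and -5.38. Cep83os is annotated as a non-coding RNA of a bidirectional promoter. The method marks no strand, and overlap of its reads with a neighbouring gene was not examined.

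The remaining 12 of the 30 falls lie outside the naming rule and were chosen after their values were seen. Their log2 fold changes were -4.59 for C130050O18Rik, -4.47 for Pcbd1, -4.37 for Dgat2, -4.18 for Hvcn1 and -3.80 for Il13ra1. They were -3.76 for Cables1, -3.76 for Dgka, -3.72 for App, -3.50 for Ass1, -3.004 for Kpna6, -2.11 for 4930523C07Rik and -1.77 for Agps. Dgat2 is an enzyme of triglyceride synthesis, Hvcn1 the voltage-gated proton channel of phagocytes, and Il13ra1 a receptor chain for interleukins.

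Transcription factors of the granulocyte-monocyte branch mostly did not pass. Egr1, an immediate early factor that this list and another share, was the 1 of 19 tested members that rose, beside 0.125% of all tested genes, and 0 fell, with a median of -0.43. Irf8, which favours monocyte and dendritic cell fates, had 6.00, 24.47 and 21.42 CPM in KO libraries, against 55.3 to 92.9 CPM in HET libraries (log2 fold change -2.02 ± 0.45; adjusted p = 0.0789). Its groups did not overlap, yet the threshold was missed. Spi1, the ETS factor PU.1, had a log2 fold change of 0.96 (adjusted p = 0.166). The granulocyte factor gene Cebpe averaged 122 CPM in KO and 67.9 CPM in HET cells (adjusted p = 0.432), Cebpa 7.34 and 24.23 CPM (adjusted p = 0.356), and Gfi1 41.1 and 61.0 CPM (adjusted p = 0.409). For Cebpa, HET libraries 7 and 9 had 3.55 and 7.85 CPM, beside 5.53 to 9.85 CPM in KO libraries. The other HET libraries had 26.4 to 46.05 CPM, and WT libraries 2, 5 and 12 had 36.2, 8.18 and 4.69 CPM.

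Signalling and immediate early genes were among the rises. Rgs1, a GTPase activator that dampens G protein signals, had 201, 110 and 82.9 CPM in KO libraries, against 10.96 to 17.1 CPM in HET libraries (median 14.0). The lowest KO library was well above the highest HET library. The log2 fold change was 3.23 ± 0.35 (SE; edgeR adjusted p = 0.00102). Prkcq, protein kinase C theta, had 59.8, 106 and 93.4 CPM in KO libraries, against 4.26 to 11.5 CPM in HET libraries (log2 fold change 3.37 ± 0.42; adjusted p = 0.00281). Egr1 had 82.3, 109 and 193 CPM in KO libraries, against 9.86 to 24.3 CPM in HET libraries (2.92 ± 0.37; adjusted p = 0.00298). Fos, the AP-1 subunit, had 401, 402 and 517 CPM in KO libraries, against 83.7 to 151 CPM in HET libraries (1.92 ± 0.30; adjusted p = 0.0128).

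Of 17 tested immediate early genes, Egr1 and Fos rose and 0 fell, beside 0.125% and 0.25% of all tested genes. The median log2 fold change was 1.26, and 10 were higher at an unadjusted p under 0.05, where 744 of all 12001 genes were. Ier2 had a log2 fold change of 1.92 (adjusted p = 0.0945), the phosphatase gene Dusp1 one of 1.65 (adjusted p = 0.161) and Myc one of 0.83 (adjusted p = 0.201). Of 16 tested heat shock genes, 0 passed, with a median of -0.009. Cdkn1a, which encodes the cell cycle inhibitor p21, had 88.1, 111 and 69.2 CPM in KO libraries, against 11.8 to 24.6 CPM in HET libraries (log2 fold change 2.26 ± 0.32, SE; edgeR adjusted p = 0.00665). It was the 1 of 23 tested p53 targets that rose, beside 0.125% of all tested genes; the median of that list was 0.42. Of 42 DNA replication genes and 30 mitosis genes tested, 0 passed, with medians of -0.005 and 0.30.

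Cpa3, the mast cell carboxypeptidase, was higher in KO cells. It had 2484, 1415 and 1716 CPM in KO libraries, against 186 to 675 CPM in HET libraries (median 286). HET library 9 held the highest HET level. The log2 fold change was 2.47 ± 0.41 (SE; edgeR adjusted p = 0.0235), and Cpa3 was the 1 of 12 tested basophil and mast cell genes that rose, beside 0.125% of all tested genes, with 0 that fell and a list median of 1.18. Cma1, mast cell chymase, had 99.4, 13.8 and 454 CPM in KO libraries, against 0 to 35.8 CPM in HET libraries (log2 fold change 4.36; adjusted p = 0.152), so the groups overlapped. Gata2, a factor of mast cells and stem cells, had a log2 fold change of 1.28 (adjusted p = 0.134) and Ifitm1 one of 2.84 (adjusted p = 0.114). Mcpt8, the basophil protease, had 3.21, 0 and 0 CPM in KO libraries, against 7.39 to 53.5 CPM in HET libraries, a negative log2 fold change that missed the threshold (-4.31; adjusted p = 0.165). The 4 basophil or mast cell markers summed to 1433, 1740 and 2546 CPM in KO libraries, against 215 to 807 CPM in HET libraries, and Cpa3 made up most of that sum.

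Of the other named rises, Cd200r4, a receptor of the CD200R family, had 76.5, 38.3 and 88.0 CPM in KO libraries, against 6.40 to 24.3 CPM in HET libraries (log2 fold change 2.50; adjusted p = 0.0268). Rnase6, an antimicrobial ribonuclease, had 52.5, 37.1 and 76.7 CPM in KO libraries, against 4.43 to 13.9 CPM in HET libraries (2.71; adjusted p = 0.0235). Mc5r, a melanocortin receptor, had 73.9, 54.9 and 147 CPM in KO libraries, against 11.8 to 27.9 CPM in HET libraries (2.31; adjusted p = 0.024). A further group was near 0 in HET cells. Ccr8, a chemokine receptor, had 40.7, 9.87 and 73.2 CPM in KO libraries, against 0 to 4.86 CPM in HET libraries (5.11; adjusted p = 0.0377). Il33, an alarmin cytokine, had 11.6, 4.74 and 4.50 CPM in KO libraries, against 0 to 0.655 CPM in HET libraries (4.34; adjusted p = 0.0326). Smpx (log2 fold change 5.39), the imprinted gene Nap1l5 (5.99), the dehydrogenase gene Sdr9c7 (5.45) and the epoxide hydrolase gene Ephx2 (4.51) were the others, with HET medians of 1.08, 0, 0.128 and 0.726 CPM. The size of these 4 fold changes depends on the few HET reads.

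**Figure D4:**
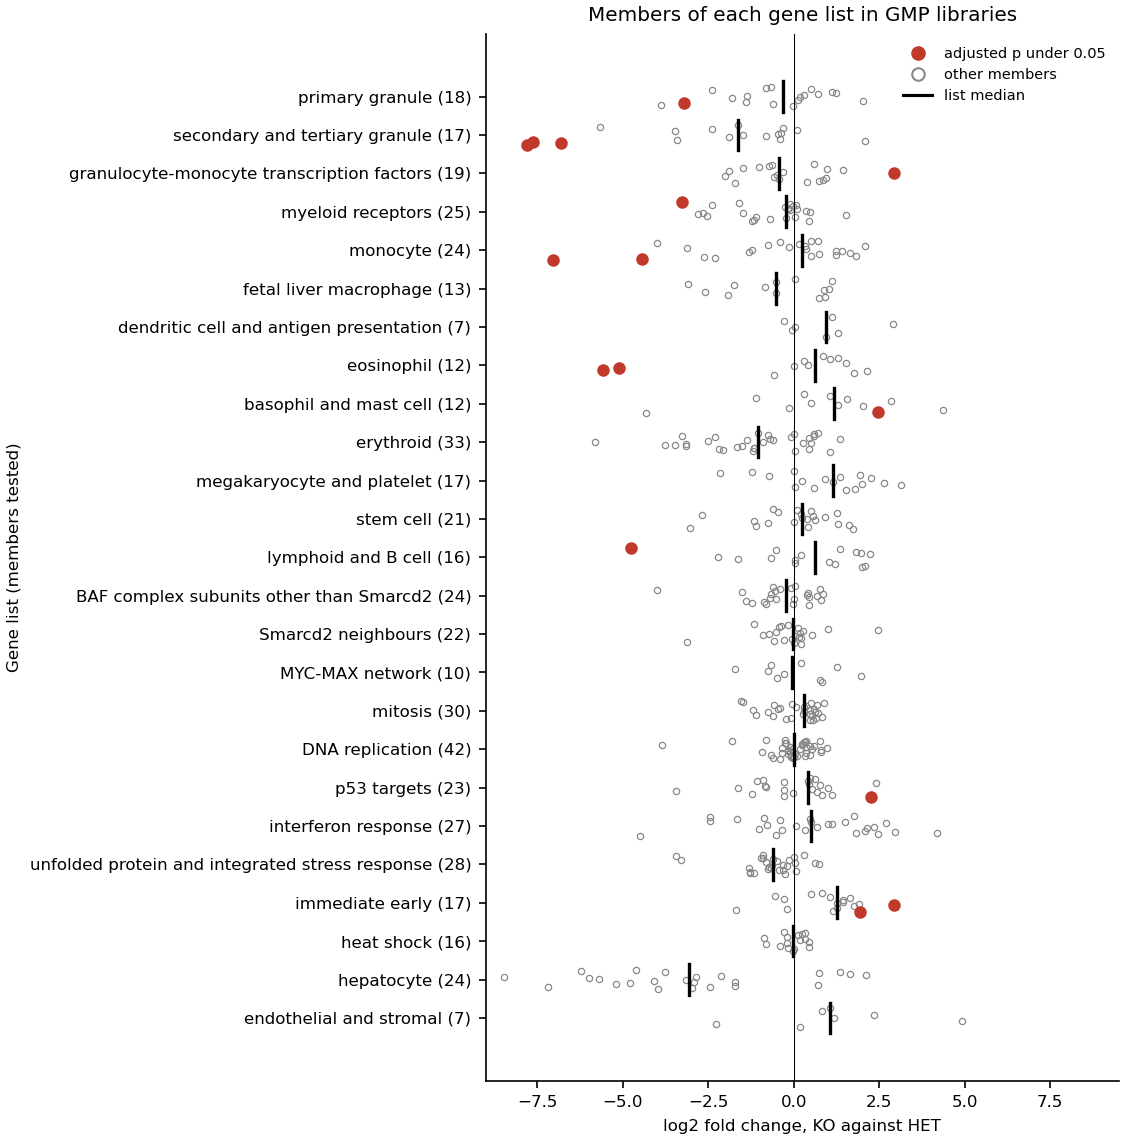
Log2 fold change of KO against HET for the tested members of each of 25 gene lists (rows, with the number tested). Filled points passed at an adjusted p under 0.05, open points did not, and bars are list medians. The hepatocyte list has a median of -3.05 and the secondary and tertiary granule list one of -1.63, beside 0.006 over all tested genes.

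Lists of other lineages and of stress held values without calls. Of 24 tested hepatocyte genes 0 passed, but the median was -3.05 and 13 were lower at an unadjusted p under 0.05; Apoa1, for example, had 0 to 0.214 CPM in KO libraries, against 0.768 to 63.9 CPM in HET libraries (adjusted p = 0.0945). The 8 hepatocyte markers, all with reads in both groups, summed to 28.0, 75.9 and 98.7 CPM in KO libraries, against 12.5 to 1496 CPM in HET libraries (median 667). Of 33 tested erythroid genes 0 passed, with a median of -1.04; the 9 erythroid markers summed to 3500 CPM in KO library 6 and to 125 and 262 CPM in KO libraries 13 and 15, against 306 to 5893 CPM in HET libraries. Both sums were high in the M32 HET libraries and low in the M33 ones. The WT libraries were not split in this way. WT libraries 2 and 5 of M32 and 12 of M33 had hepatocyte sums of 47.3, 1459 and 429 CPM. Their erythroid sums were 1212, 3445 and 1621 CPM. The part of these cells in the falls was not tested.

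Of 28 tested genes of the unfolded protein and integrated stress response, 0 passed, with a median of -0.62 and 11 lower at an unadjusted p under 0.05. The chaperone genes Pdia4 and Hsp90b1 had log2 fold changes of -1.28 (adjusted p = 0.141) and -1.15 (adjusted p = 0.157). Of 27 interferon response genes 0 passed, with 11 higher and 3 lower at an unadjusted p under 0.05 and a median of 0.49; Ifi27 had a log2 fold change of 2.69 (adjusted p = 0.0945). Of 17 megakaryocyte and platelet genes 0 passed, with a median of 1.14, and a median of 0.199 for KO against WT. The 4 megakaryocyte markers summed to 73.9 to 90.4 CPM in KO libraries, against 30.3 to 53.2 CPM in HET libraries. WT libraries 2, 5 and 12 had sums of 17.6, 114 and 20.9 CPM. Of 21 stem cell genes 0 passed, with a median of 0.24, and 4 were higher and 2 lower at an unadjusted p under 0.05. Meis1 had a log2 fold change of 1.72 (adjusted p = 0.144) and Hmga2 one of 1.26 (adjusted p = 0.129). Prom1 had one of -2.69 (adjusted p = 0.230) and Hlf one of -3.05 (adjusted p = 0.235). Of 13 macrophage, 7 dendritic cell, 10 MYC network and 7 endothelial and stromal genes 0 passed, with medians of -0.51, 0.94, -0.04 and 1.05. Stab2, a scavenger receptor of liver endothelium, had 101 CPM in KO library 6 and 3.16 and 2.57 CPM in the other KO libraries, against 0.655 to 2.22 CPM in HET libraries (adjusted p = 0.0667). The 4 endothelial markers, Stab2 among them, summed to 150 CPM in KO library 6. They summed to 3.55 and 6.85 CPM in KO libraries 13 and 15, and to 1.64 to 6.90 CPM in HET libraries. The part of endothelial cells in these values was not tested.

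Libraries did not sort by genotype alone in their whole profiles. By Pearson r of log2 CPM over all tested genes, KO library 13 averaged 0.872 with HET libraries and 0.799 with the other KO libraries. HET library 7 averaged 0.831 with KO libraries and 0.793 with the other HET libraries. Every other KO or HET library correlated better with its own genotype. The 45 genes differed in how far they depended on single libraries. With each KO or HET library left out in turn, 12 of 45 passed every time, namely Smarcd2, Ly6c2, S100a8, S100a9, Ear1, Ear-ps9, Ctsg, Hpse, Rgs1, Prkcq, Egr1 and Cdkn1a, and all 45 kept their direction. The number of genes that passed ranged from 15 to 969 in these fits; without KO library 13 it was 969 and included all 45. Within series M32, with 1 KO library, all 45 had the same direction and 0 passed by edgeR (2693 genes at an unadjusted p under 0.05); Ly6c2 had a log2 fold change of -8.32 there, S100a8 -10.93, Ctsg -4.05, Rgs1 3.93 and Cpa3 3.25. Among the 6 libraries with at least 1% of gene reads in Gm42418, KO library 13 was the only KO library; all 45 had the same direction there and 40 passed, in a fit that assumes this lone library varies like those of the other groups. Among the 6 with less, which hold KO libraries 6 and 15, all 45 had the same direction and 3 passed. Clec5a, for example, had log2 fold changes of -1.82 and -4.99 in these subsets, and Ctsg -3.28 and -3.62. When the spike-in share was added to the model, 0 genes passed by edgeR (1627 at an unadjusted p under 0.05) and 43 of 45 had the same direction, with Cpa3 at -0.81 and Cd200r4 at -1.03; this share separated KO from HET libraries completely, so it and the genotype cannot be told apart.

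Common myeloid progenitors (CMP), the population before GMP, were compared in the same way in 4 KO and 7 HET libraries. They were of the same strain and labelled age, except that CMP HET library 1 was labelled 14.5 days. The labels do not say whether GMP and CMP libraries with the same title number came from 1 fetus, and the model has no term for the number. With the number as a replicate block 3 differences passed, so the differences given below hold for the model without it. Of 12061 genes listed and tested in both populations, 81 differed in their KO against HET change (0.672%), 64 toward lower values in GMP (0.531%) and 17 toward higher (0.141%). Of the 45 GMP genes 34 were measured in both, and 20 of these 34 had a difference that passed; they were chosen for their GMP change, so this share is read only as a description. Ly6c2 averaged 1.24 ± 1.06 CPM in KO CMP (SD, n = 4) and 9.99 ± 2.19 CPM in HET CMP (SD, n = 7), and the difference of its log2 fold changes, GMP minus CMP, was -3.98 ± 0.71 (SE; edgeR interaction test, adjusted p = 0.00627). Differences for Rgs1 (1.86), Prkcq (2.06) and Cpa3 (1.99) had adjusted p-values of 0.0124, 0.0168 and 0.0246; Cpa3 averaged 160 ± 16.7 CPM in KO CMP and 115 ± 21 CPM in HET CMP.

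In the model without the title number, the change of Irf8 differed between the populations. It averaged 222 ± 63.7 CPM in KO CMP (SD, n = 4) and 154 ± 35.6 CPM in HET CMP (SD, n = 7), and the difference of its log2 fold changes was -2.56 ± 0.45 (SE; edgeR interaction test, adjusted p = 0.00627). Gstm1 had the same difference, -2.56 (adjusted p = 0.0241), and Clec5a had -2.18 (adjusted p = 0.0488). Ctsg averaged 61.9 ± 11.1 CPM in KO CMP and 351 ± 61.8 CPM in HET CMP, a log2 fold change of -2.50 in CMP beside -3.22 in GMP, and the difference of -0.72 ± 0.39 (SE) did not pass (adjusted p = 0.357). Differences for S100a8 (-4.75, adjusted p = 0.0832), Egr1 (1.36, adjusted p = 0.139), Cdkn1a (0.91, adjusted p = 0.250) and Smarcd2 (-1.05, adjusted p = 0.473) did not pass either, which does not show that these changes were alike. S100a8 was low in CMP of both genotypes, at 0.751 and 5.06 CPM in KO and HET CMP. The count of 81 rested on single libraries too, from 55 to 2153 with 1 GMP library left out, and was 2153 without KO library 13.

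**Figure D5:**
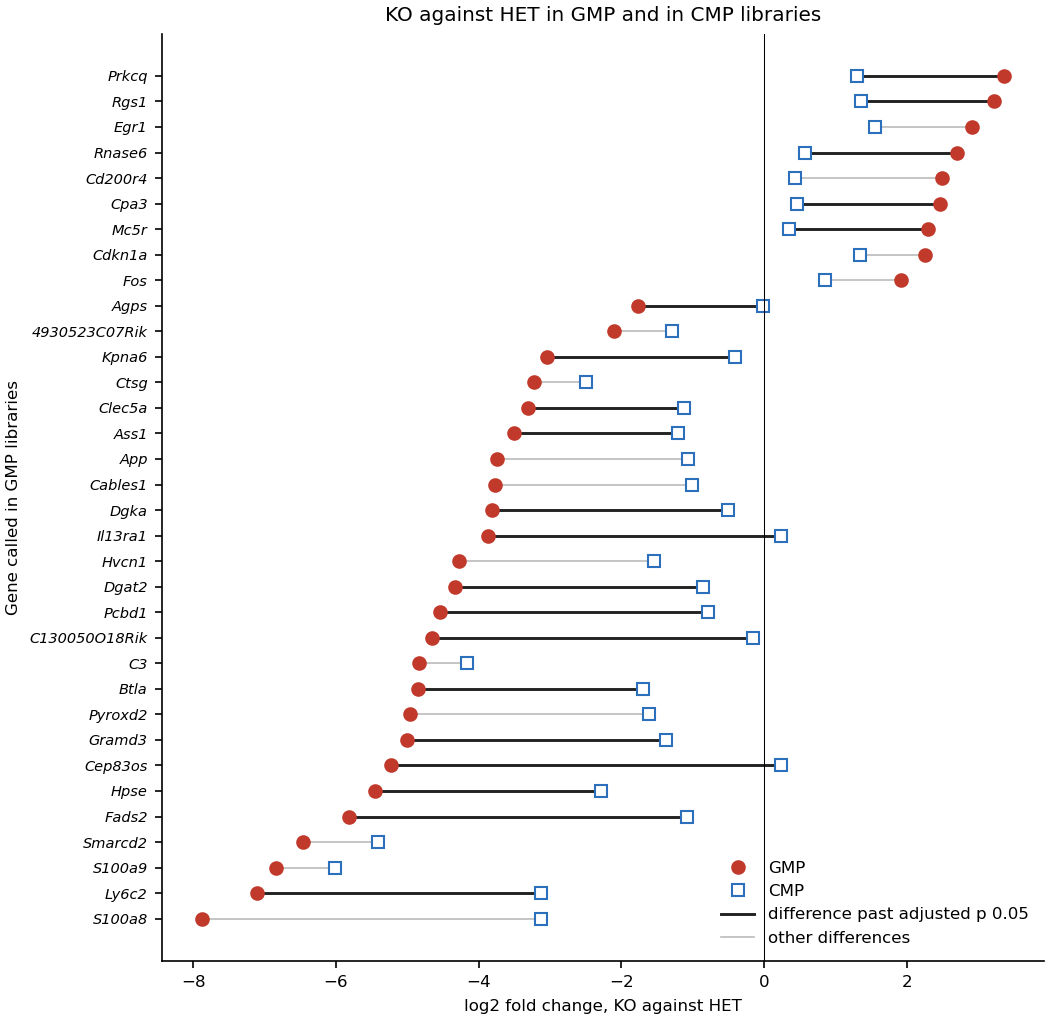
Log2 fold change of KO against HET in GMP (filled circles) and CMP (open squares) for the 34 genes that passed in GMP and were measured in both populations. Dark connecting lines mark the 20 genes whose difference passed at an adjusted p under 0.05 in the model without the title number. Grey lines mark the others. Ly6c2 lies at -7.11 in GMP and -3.12 in CMP, and Ctsg at -3.22 and -2.50.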

How the data were processed

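Counts are whole-number reads per Ensembl gene and library, deposited by the authors. The submitters' processing notes name featureCounts and mm10 (GRCm38). Not given in the sources used here are the aligner, the annotation release and the version of the counter. Per the labels' protocols, cDNA was made by Smart-seq2 and libraries by tagmentation, without strand or molecular identifiers, so intervals and floors cover counting error only. The GMP table lists 27892 genes and 43 spike-ins; 543 genes had no symbol in GENCODE M21. Spike-ins stayed out of library sizes and tests. No 2 GMP columns were identical.

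GMP libraries of all 3 genotypes were fitted together in edgeR 4.0.16 (R 4.3.3; TMM, robust quasi-likelihood, filterByExpr with minimum count 10 and minimum total 15), with Benjamini-Hochberg adjustment over all genes tested; every gene-level adjusted p is from this test. The SE is the log2 fold change over the square root of F. The population difference used 1 model of GMP and CMP counts over 15734 shared genes. Where a group had no reads, 3 counts over that group served as floor; for 1 to 3 reads the pooled ratio has an exact 95% interval. Library measures were compared by exact permutation (SciPy 1.17.1). The fit was tested on simulated counts. Members and the 25 lists were chosen with earlier results of these data known. Named genes were Smarcd2, the 15 largest rises and falls among genes past the threshold whose mean log2 CPM was 1 or more, predicted genes passed over, and up to 4 members per list by smallest unadjusted p. Of named list members that did not pass, those with an unadjusted p under 0.01 were candidates for printed values. Other list genes given were chosen after their values were seen. These were Mpo, Prtn3, Ltf, Cxcr2, Csf3r, Prg2, Epx, Cebpe, Cebpa, Gfi1, Mcpt8, Tmsb10, Ms4a6c, Prom1, Hlf and Ear6. Alternatives included DESeq2 1.42.0 and limma 3.58.1.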

Additional observations from a re-analysis of the deposited data

Results flagged for a closer look

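Of 78 named genes and library measures examined in the 6 HET libraries, 12 had 1 library far from the others, by a gap over 0.625 of the whole range; chance gives about 1 in 20 groups. HET library 7 held the highest value of Elane (8700 CPM), Gramd3 (40.4 CPM), Wfdc21 (4.92 CPM), Ifi27 (24.9 CPM), Apoc2 (41.3 CPM) and Oas1a (12.3 CPM), and the lowest of Pdia4 (210 CPM). HET library 10 held the highest value of Ccr8 (4.86 CPM), Cma1 (35.8 CPM) and Sox4 (21 CPM), and the lowest mitochondrial share (2.35% of gene reads). HET library 9 held the highest value of Myc (249 CPM).

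The KO against HET change differed between GMP and CMP, by the interaction test without a term for the title number, for 15 named genes. The difference of log2 fold changes (GMP minus CMP) was -5.47 for Cep83os, -4.74 for Fads2, -3.98 for Ly6c2, -3.63 for Gramd3, -3.17 for Hpse, -3.16 for Btla, -2.56 for Irf8, -2.56 for Gstm1 and -2.18 for Clec5a. It was 1.86 for Rgs1, 1.95 for Mc5r, 1.99 for Cpa3, 2.06 for Prkcq, 2.13 for Rnase6 and 8.26 for Stab2. Stab2 stood at 101 CPM in KO library 6 and at 3.16 and 2.57 CPM in the other KO libraries. In KO library 6 the 4 endothelial markers, Stab2 among them, summed to 150 CPM, against 3.55 and 6.85 CPM in KO libraries 13 and 15.

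HET library 8, which entered no comparison above, had 48.39% of its gene reads in Gm10800, against 0.361% to 2.38% in the other HET libraries.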

How the results depend on the processing

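The count of 45 genes for KO against HET was 44 with RLE factors, 42 with upper-quartile factors, which shift the median of all genes by -0.114, and 45 with spike-ins in the library size. It was 244 without a filter (168 higher, 76 lower), 28 with at least 50 reads in 3 libraries, 578 by DESeq2 (168 higher, 410 lower; 44 of the 45 shared), 164 by limma voom with quality weights (147 higher, 17 lower; 21 shared), 10 with only KO and HET libraries, and 32 with all 7 HET libraries. It was 77 with the title series as a block (15 higher, 62 lower; 16 shared), 0 when the spike-in share was added as covariate and 0 within series M32. Leaving out 1 library gave 15 (HET 1 or 4) to 969 (KO 13), with 103 without HET 7. Chosen after the data were seen, a transcript length index as covariate gave 117 (35 higher, 82 lower), the 6 libraries high in Gm42418 gave 1913 and the 6 low in it gave 3. The cause was not tested in any of these. By DESeq2 the secondary and tertiary granule list had 0 rises and 9 falls, the primary granule list 0 and 4, the hepatocyte list 1 and 8, and immediate early genes 5 and 0. Of the other lists without a call by edgeR, DESeq2 gave 0 rises and 4 falls in erythroid, 0 and 3 in stress response, 2 and 1 in megakaryocyte and in interferon, 3 and 2 in stem cell, 0 and 2 in replication and 1 and 0 in MYC network genes. It gave 0 in macrophage, dendritic cell, BAF, neighbour, mitosis, heat shock and endothelial genes.

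Of 1746 alternative values for the 74 genes whose values could be printed, 19 changed direction. When the spike-in share entered the model the log2 fold changes were Cpa3 -0.81, Cd200r4 -1.03, Ifi27 -1.26, Ier2 -1.29, F13a1 1.37, Ifitm1 -3.59, Usp18 -0.69, Slc4a1 5.65, Gimap1 -0.03, Id1 -0.81, Dusp1 -1.85, Sel1l 0.53, Prg3 -4.62, Isg20 -3.13, Ss18l1 1.46, Myc -0.72 and Mef2c 1.86. Usp18 was -1.51 with the series as a block and -1.03 within series M32.

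The 81 differences between GMP and CMP were 75 with RLE factors, 82 without a filter, 369 by DESeq2 (101 higher, 268 lower), 134 without CMP HET library 8, 54 with all HET libraries, and 55 to 2153 with 1 GMP library left out (874 without HET 7, 141 without KO 6, 138 without HET 9). Title numbers recur in GMP and CMP, but same-numbered libraries correlated in their deviations at r of -0.0997 to 0.323, over 0.1 for 7 of 12 numbers, and only 9 and 15 matched their own number best. The labels do not say that a number marks 1 fetus, so the libraries were taken to share only a number; pairing is not excluded. With the number as a replicate block 3 differences passed, and with only the shared numbers 65.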
